A study of Homo sapiens with 12 samples.

Results

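The genes described here are the heat shock proteins and the DNAJ proteins of human gingival keratinocytes. The rule for members uses name and class alone, and it was set with earlier results of these data known. It took every protein-coding row of the gene table whose symbol begins with HSPA, HSPB or DNAJA to DNAJC and a digit. Protein-coding rows that begin with HSP90, HSPD1, HSPE1 or HSPH1 were also taken. The rule found 76 of 58735 rows, with 75 symbols, because HSPA14 has 2 rows. By family these were 13 HSP70, 3 HSP110, 3 HSP90, 3 chaperonin, 9 small heat shock protein, 4 DNAJA, 12 DNAJB and 29 DNAJC rows. The cells were TIGK cells, an established line of gingival keratinocytes immortalized with human telomerase, so all libraries came from 1 line. All groups were kept in 48 mM glucose, in a base medium that itself contained no arginine. Control cells received no L-arginine (Arg) and treated cells received 500 uM Arg, and RNA was taken after 24 or 48 h, with 3 libraries (replicates A, B and C) in each of the 4 groups. The sources do not say whether replicates came from cultures grown on separate days, so the p values measure only the spread between these libraries.

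Molecular chaperones bind unfolded protein and help it fold, refold or reach the degradation machinery. HSP70 proteins cycle between an open and a closed state as they bind and split ATP. DNAJ proteins carry a J domain that delivers the client and starts ATP splitting, and HSP110 proteins exchange the nucleotide to release it. HSP90 takes over late in the folding of kinases and steroid receptors, HSPD1 and HSPE1 form the folding chamber of mitochondria, and small heat shock proteins hold unfolded protein without ATP. Many of these genes are switched on by heat shock factor 1 (HSF1), which binds repeated GAA and TTC units called heat shock elements. In the endoplasmic reticulum (ER), HSPA5 and its partners are instead raised by the unfolded protein response, and in stratified epithelium HSPB1 is known to be abundant in differentiating keratinocytes.

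Library totals were between 16542243 and 19040964 counts. Levels are given as CPM, a library's counts scaled to a common total with TMM factors, and a gene is called upregulated or downregulated where its adjusted p in edgeR's quasi-likelihood test was under 0.05. All 10 keratinocyte markers looked at were above 1 CPM, with a summed level between 43617 and 55804 CPM. Of 6 fibroblast markers, COL1A1, DCN and LUM averaged over 1 CPM and none was at 0 throughout. The summed fibroblast markers were between 30.2 and 54.4 CPM at 24 h and between 72.4 and 102 CPM at 48 h. Endothelial markers reached at most 2.12 CPM in sum, leukocyte markers 3.57 CPM and melanocyte markers 3.05 CPM, with TYR at 0. Control replicate B at 48 h stood apart from the other 2 libraries of its group, with a chi-square per degree of freedom of 20.9 and 23.9 against them, where A and C gave 3.66. Results for Arg against control at 48 h are therefore given with and without it. For 48 h against 24 h in control the counts of called members are given without it, and most gene values only with it.

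Promoter sequence was read for 66 of the 75 symbols, from RefSeq windows of GRCh38.p14 that run from 250 bases before to 50 bases after an annotated start. A heat shock element of 3 units was searched on both strands as GAANNTTCNNGAA and TTCNNGAANNTTC, and one of 2 units as GAANNTTC and TTCNNGAA, which lie within every 3-unit match. Some members have several windows, 85 in all. The 3-unit element was found in 7 members (10.6%), which was 8.24% of the member windows, and in 0.489% of all 34943 windows of the same length. The 2-unit element was found in 22 members (33.3%), in 27.1% of the member windows and in 13.5% of all windows. The ER stress element, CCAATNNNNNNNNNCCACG, is a separate word that holds neither heat shock element, and was found in HSPA5 and HSP90B1 (3.03% of the members with a window, 2.35% of the member windows) against 0.0773% of all windows. A match is a description of the letters and not evidence of binding. The 250 bases before the start are shown for 4 inducible or heat-regulated HSP70 genes and for the 2 ER chaperones, since their levels separate in the comparisons that follow. Capitals mark the 3-unit element in HSPA8 and HSPA6, the 2-unit element in HSPA1A and HSPA1B, and the ER stress element in HSPA5 and HSP90B1.
HSPA8: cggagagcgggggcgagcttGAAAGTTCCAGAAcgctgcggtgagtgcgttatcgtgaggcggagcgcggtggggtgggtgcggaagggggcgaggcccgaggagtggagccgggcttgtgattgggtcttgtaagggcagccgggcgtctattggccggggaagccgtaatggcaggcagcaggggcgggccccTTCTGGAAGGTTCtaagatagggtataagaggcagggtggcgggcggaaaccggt
HSPA6: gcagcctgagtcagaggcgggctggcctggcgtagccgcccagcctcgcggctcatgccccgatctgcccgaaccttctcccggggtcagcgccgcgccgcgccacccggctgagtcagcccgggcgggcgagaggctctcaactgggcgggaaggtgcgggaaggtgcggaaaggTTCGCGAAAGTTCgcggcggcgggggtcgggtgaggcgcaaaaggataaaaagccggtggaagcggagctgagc
HSPA1A: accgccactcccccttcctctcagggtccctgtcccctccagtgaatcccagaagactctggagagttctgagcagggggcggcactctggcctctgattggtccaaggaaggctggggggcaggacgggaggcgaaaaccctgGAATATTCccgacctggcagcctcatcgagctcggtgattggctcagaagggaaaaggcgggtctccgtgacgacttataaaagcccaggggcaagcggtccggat
HSPA1B: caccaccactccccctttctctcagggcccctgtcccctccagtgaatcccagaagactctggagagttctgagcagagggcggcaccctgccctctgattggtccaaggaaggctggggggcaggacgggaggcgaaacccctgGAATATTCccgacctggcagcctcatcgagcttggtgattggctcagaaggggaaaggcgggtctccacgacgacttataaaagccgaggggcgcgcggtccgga
HSPA5: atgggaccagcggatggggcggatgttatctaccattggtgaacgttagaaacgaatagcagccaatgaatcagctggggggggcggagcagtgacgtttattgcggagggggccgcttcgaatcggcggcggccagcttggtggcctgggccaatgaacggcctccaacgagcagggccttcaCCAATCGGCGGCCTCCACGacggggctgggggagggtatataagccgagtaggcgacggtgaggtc
HSP90B1: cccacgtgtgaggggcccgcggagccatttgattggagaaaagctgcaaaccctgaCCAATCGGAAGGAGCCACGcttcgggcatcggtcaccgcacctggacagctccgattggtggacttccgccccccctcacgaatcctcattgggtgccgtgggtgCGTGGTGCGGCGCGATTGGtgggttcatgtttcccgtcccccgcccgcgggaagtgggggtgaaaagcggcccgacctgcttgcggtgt
The HSPA8 stretch lies on the minus strand at chr11:123062137-123062386, with matches that begin at positions -230 and -55, where -1 is the last base before the start. HSPA6 lies on the plus strand at chr1:161524290-161524539, with its match at position -74. The HSPA1A stretch (chr6:31815293-31815542, plus strand) and the HSPA1B stretch (chr6:31827488-31827737, plus strand) were the same at 235 of 249 aligned bases (94.4%). HSPA5 (chr9:125241344-125241593, minus strand) and HSP90B1 (chr12:103930160-103930409, plus strand) carry 1 and 2 matches. The other 5 members with the 3-unit element are shown as the match with 5 bases on each side, the match in capitals. All 5 are cytosolic or mitochondrial chaperones.
DNAJA1: gggcgGAACTTTCCAGAAcgctc
DNAJB6: gccgaGAACCTTCGCGAAggtgg
HSP90AA1: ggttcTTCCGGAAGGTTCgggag
HSP90AB1: gcaggTTCTGGAAGATTCatggg
HSP90AB1: gattgTTCTGGAAGCTTCtggat
HSPD1: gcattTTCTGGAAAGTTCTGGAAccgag
In DNAJA1 (chr9:33025271-33025293, plus strand) the match begins at base 4 after the start, and in DNAJB6 (chr7:157336868-157336890, plus strand) it begins at position -131. Those of HSP90AA1 (chr14:102087115-102087137, minus strand), HSP90AB1 (chr6:44247773-44247795 and chr6:44247826-44247848, plus strand) and HSPD1 (chr2:197500063-197500090, minus strand) lie in the window of another annotated start. The HSPD1 stretch holds 2 overlapping matches.

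Together the members took 1.79% ± 0.0764 (SD, n = 3) of all counts in control cells and 1.82% ± 0.0815 in Arg-treated cells at 24 h. At 48 h the share was 1.47% ± 0.0629 in control and 1.42% ± 0.0369 with Arg, so every 48 h library (1.38% to 1.53%) lay below every 24 h library (1.73% to 1.90%). These shares are of RNA from whole cultures, where fewer cells of a kind and less RNA per cell cannot be told apart. Per kilobase of the deposited exonic length, the highest mean levels over the 12 libraries were those of HSP90AB1 (855 RPKM), the constitutive cytosolic HSP90, and HSPA8 (548 RPKM), the constitutive cytosolic HSP70. HSPB1, the small heat shock protein also known as HSP27, followed at 539 RPKM, then the inducible cytosolic HSP90AA1 at 465 RPKM and the mitochondrial HSPD1 at 295 RPKM. HSPE1, the co-chaperonin that pairs with HSPD1, was listed at 29.5 RPKM. Its row carries an uncertainty of counting, since 26 pseudogene rows bear its name and 17.9% of its exonic bases are shared with other genes. Those pseudogene rows held 42 counts, against 12684 for HSPE1. HSPA8 and HSPD1 have 17 such rows each, with 101 and 288 counts, and HSPB1 has 2, with 336 counts.

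**Figure D1:**
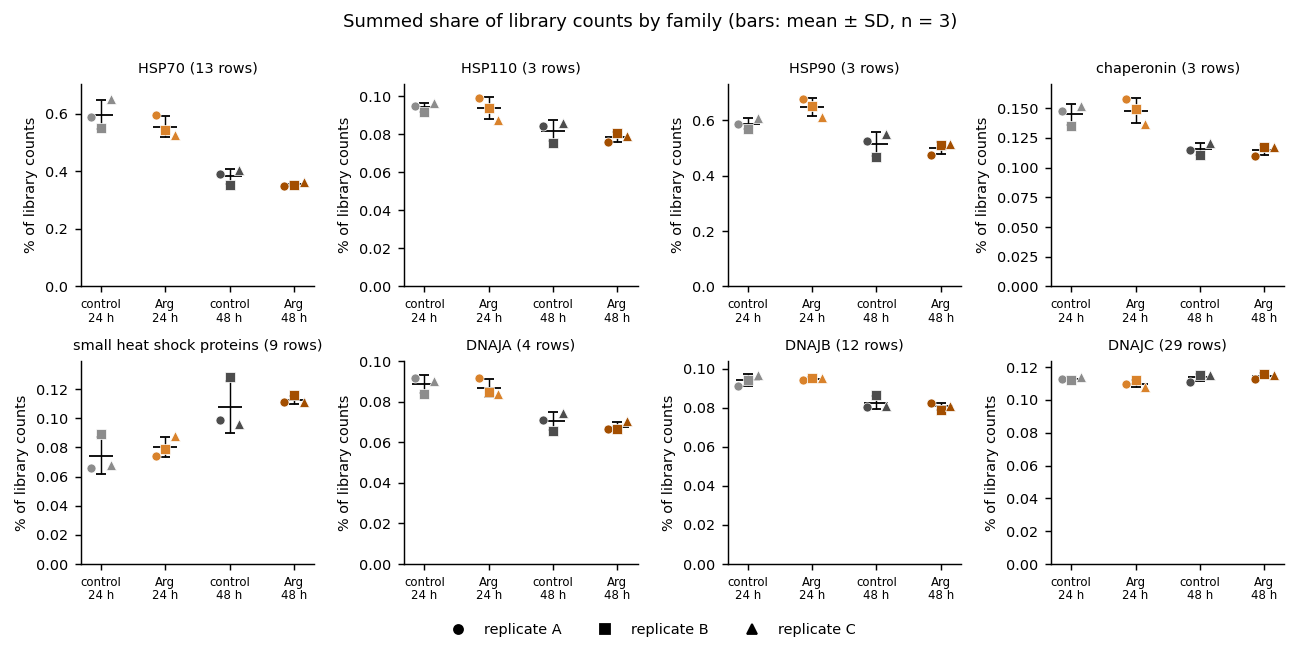
Share of library counts (y axis, percent) taken by each of the 8 families in the 4 groups (x axis), with 1 point per library, shaped by replicate, and bars for the mean ± SD. The HSP70, HSP90, chaperonin and DNAJA shares lie lower at 48 h than at 24 h, the small heat shock protein share lies higher, and the DNAJC share stays between 0.108% and 0.116%.

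Of the 76 members, 64 had enough counts to be tested in every comparison. The 12 that did not were DNAJB7, DNAJB8, DNAJB13, DNAJC5B, DNAJC5G, HSPB2, HSPB6, HSPB7, HSPB9 and the readthrough rows HSPE1-MOB4, HSPB2-C11orf52 and DNAJC25-GNG10. DNAJB8, a testis-enriched J protein, and the last 2 readthrough rows had 0 counts in all libraries, which allows at most 0.158 to 0.181 CPM in a library (3 counts, counting error only). None of the other 9 had more than 8 counts in any library.

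The comparison of 48 h with 24 h asks how chaperone RNA moved with time in culture, separately in each medium. Cytosolic HSP70 RNA dropped: HSPA8, HSPA1A and HSPA1B were all downregulated in both media, with their co-chaperones DNAJA1 and DNAJB1. The small heat shock proteins HSPB1 and HSPB8 were upregulated in both. In control cells 8 members were upregulated and 12 downregulated, where 9.90% and 10% of all 14449 genes tested were called in those directions. With Arg 7 were upregulated and 18 downregulated, against 14.3% and 14.0% of 14398 genes. No library is shared between the control and the Arg time comparison. Of the 12 and 18 downregulated members 11 were the same (91.7% and 61.1%), and of the 8 and 7 upregulated members 7 were the same (87.5% and 100%). The same overlap over all genes was not counted, so it is not read as a trait of the members. The upregulated shares of the 64 tested members were near those of all genes. The median log2 fold change of the 64 members was -0.103 in control and -0.064 with Arg, and over all genes tested it was 0.012 and 0.001.

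These counts depended on scaling. With library size as the only scaling, the median of all genes rose by 0.060 in control and by 0.057 with Arg. The upregulated share of all calls then went from 49.7% to 64.7% in control and from 50.6% to 63.9% with Arg. The members called under that scaling were 9 upregulated and 10 downregulated in control, and 13 and 14 with Arg. Without control replicate B at 48 h, 7 members were upregulated and 11 downregulated in control, against 7.81% and 8.60% of all genes. Leaving out control replicate A at 24 h gave 3 upregulated and 9 downregulated members, with 2.85% and 2.74% of all genes called. Leaving out replicate C at 24 h gave 4 and 9, with 3.34% and 3.36% of all genes called. The summed fibroblast markers, which also moved with time, are given above, and their part in these results was not tested.

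**Figure D2:**
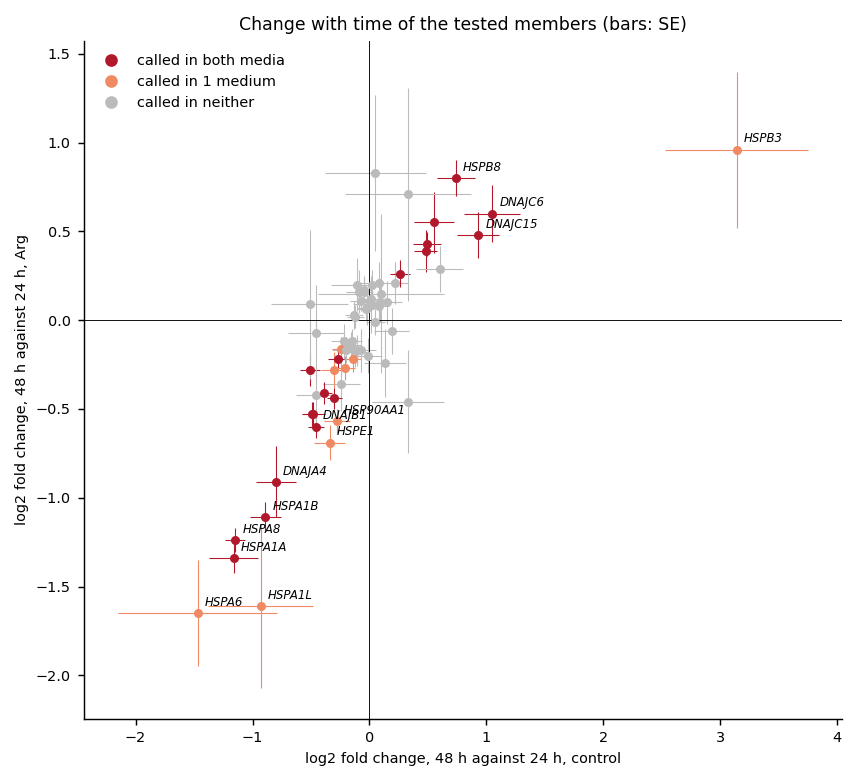
Log2 fold change between 48 h and 24 h in control (x axis) and with Arg (y axis) for the 64 tested members, with bars for the SE. Members called in both media lie in the lower left or the upper right of the plot, with HSPA8, HSPA1A and HSPA1B at the lower left and HSPB8, DNAJC6 and DNAJC15 at the upper right.

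HSPA8 (ENSG00000109971, chr11:123057489-123063230, minus strand) folds newly made protein and strips clathrin from vesicles. In control its level was 3698, 3431 and 4212 CPM at 24 h and 1722, 1572 and 1788 CPM at 48 h. With Arg it was 4030, 3458 and 3366 CPM at 24 h and 1487, 1515 and 1586 CPM at 48 h. All 6 libraries at 48 h lay below all 6 at 24 h. The drop was 2.22-fold in control (log2 fold change -1.15 ± 0.082 SE, adjusted p = 0.000109) and 2.36-fold with Arg (-1.24 ± 0.068, adjusted p = 1.35e-09). It alone went from 0.368% of all counts to 0.173% in control, and from 0.355% to 0.157% with Arg.

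HSPA1A and HSPA1B encode the stress-inducible cytosolic HSP70 and are so alike that reads may be split between them. HSPA1A (ENSG00000204389, chr6:31815464-31817946, 1 exon) was at 203, 169 and 255 CPM in control at 24 h and at 102, 58.5 and 119 CPM at 48 h. In Arg-treated cells it was at 160, 202 and 178 CPM and then at 65.2, 71.8 and 75.1 CPM. The times did not overlap in either medium, and control replicate B was the lowest of its group at both times. The drop was 2.24-fold in control (-1.16 ± 0.21, adjusted p = 0.00438) and 2.54-fold with Arg (-1.34 ± 0.086, adjusted p = 6.32e-09). HSPA1B (ENSG00000204388, chr6:31827735-31830255) fell 1.85-fold (-0.89 ± 0.13, adjusted p = 0.00198) and 2.16-fold (-1.11 ± 0.084, adjusted p = 2.56e-08). Summed over both genes, so that a split of reads does not matter, the level was 327, 287 and 393 CPM in control at 24 h and 179, 111 and 193 CPM at 48 h. The same sum with Arg was 267, 330.2 and 290.4 CPM and then 115, 127 and 130.3 CPM, again without overlap.

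HSPA6, the strictly stress-inducible HSP70 known as HSP70B', is a gene of 1 exon (ENSG00000173110, chr1:161524540-161526910). With Arg it fell from 3.88, 4.37 and 3.17 CPM to 1.14, 1.37 and 1.09 CPM (3.15-fold, -1.65 ± 0.30, adjusted p = 0.000414). That call was lost with all 12 libraries in 1 model (adjusted p = 0.142). In control its libraries were scattered, at 20.1, 10.1 and 51.9 CPM and then at 11.2, 0.773 and 17.5 CPM, and overlapped between the times (-1.47 ± 0.68, adjusted p = 0.152). It passed when low counts were not filtered (-1.48, adjusted p = 1.18e-20). The libraries were the same and the log2 fold change nearly so, and that p value is therefore not read as stronger evidence. HSPA1L, a low-level HSP70 next to HSPA1A, was downregulated with Arg (-1.61, adjusted p = 0.0128) at no more than 2.56 CPM in any library.

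The ER and mitochondrial HSP70 genes had other values. HSPA5, also known as BiP, was at 894, 759.7 and 983 CPM in control at 24 h and at 874, 766 and 857 CPM at 48 h, with overlapping groups (-0.07 ± 0.092, adjusted p = 0.633). HSPA9, the mitochondrial HSP70 that pulls imported protein through the inner membrane, was at 854, 752 and 838 CPM and then at 801, 747 and 826 CPM (-0.03 ± 0.072, adjusted p = 0.784). Both genes also missed the threshold with Arg, with adjusted p values of 0.159 and 0.458. Of the 13 HSP70 rows, 3 were downregulated in control and 6 with Arg, and none was upregulated in either medium (edgeR). At an unadjusted p under 0.05 none was higher, and 4 and 7 were lower. Over all genes, 2456 of 14449 tested in control and 2770 of 14398 with Arg were lower at that threshold.

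HSPH1, the HSP110 that recharges HSP70, was at 386, 368 and 441 CPM in control at 24 h and at 296, 244 and 313 CPM at 48 h. It fell 1.39-fold in control (-0.48 ± 0.098, adjusted p = 0.00757) and 1.44-fold with Arg (-0.53 ± 0.067, adjusted p = 9.44e-06). HSP90AB1 was at 2726, 2492 and 2707 CPM in control at 24 h and at 2135, 2077 and 2184 CPM at 48 h, again without overlap. Its drop was 1.23-fold in control (-0.30 ± 0.063, adjusted p = 0.00836) and 1.36-fold with Arg (-0.44 ± 0.058, adjusted p = 1.22e-05). HSP90AA1 was downregulated with Arg (1.48-fold, -0.57 ± 0.068, adjusted p = 4.6e-06). In control, where replicate B at 48 h lay at 1804 CPM and A and C at 2438 and 2537 CPM, it missed the threshold (-0.28 ± 0.11, adjusted p = 0.0869). HSP90B1, the ER form known as GRP94, was at 631, 564 and 711 CPM and then at 618, 654 and 637 CPM in control, where the groups overlapped.

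HSPD1, the HSP60 subunit, was at 1449, 1302 and 1498 CPM in control at 24 h and at 1078, 1019 and 1116 CPM at 48 h. It was downregulated in control (1.31-fold, -0.39 ± 0.072, adjusted p = 0.00457) and with Arg (1.33-fold, -0.41 ± 0.064, adjusted p = 7.25e-05). HSPE1, which shares a divergent start region with HSPD1 on chromosome 2, went from 74.6, 56.4 and 59.1 CPM to 39.6, 41.6 and 35.8 CPM with Arg. That was 1.62-fold lower (-0.69 ± 0.10, adjusted p = 4.5e-05), and in control it missed the threshold (-0.34 ± 0.13, adjusted p = 0.0745). HSPE1 passed in control by DESeq2 (adjusted p = 0.0414) and without control replicate B at 24 h (adjusted p = 0.00658).

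All 4 DNAJA genes were downregulated with Arg and 3 of them in control, against an unadjusted p under 0.05 for all 4 in both. The counts over all genes at that threshold are given above with the HSP70 rows. DNAJA1, the main J protein partner of HSPA8, was at 569, 508 and 565 CPM and then at 393, 360.0 and 409 CPM in control (1.40-fold lower, -0.49 ± 0.075, adjusted p = 0.00246). With Arg it fell 1.44-fold (-0.53 ± 0.068, adjusted p = 1.01e-05). DNAJA4 was much lower in level, at 12.6, 10 and 12.6 CPM and then at 7.09, 5.72 and 7.34 CPM in control (1.74-fold lower, adjusted p = 0.00928). Its call in control was lost without replicate A at 24 h (adjusted p = 0.0551) or replicate C at 24 h (adjusted p = 0.0506). DNAJB1, also known as HSP40, takes part in refolding after heat. It was at 494, 523 and 542 CPM and then at 366, 388 and 369.7 CPM in control, and fell 1.38-fold (-0.46 ± 0.068, adjusted p = 0.00205). With Arg it fell 1.52-fold (-0.60 ± 0.062, adjusted p = 8.54e-07). Part of the DNAJB1 exons (525 bases) lies opposite those of TECR, a gene with 81264 counts, and the strand setting of the counting is not given in the sources used here. DNAJC10, an ER J protein that reduces disulfide bonds, went from 55.3, 53.8 and 56.4 CPM to 37.2, 39.6 and 38.7 CPM in control (1.42-fold lower, adjusted p = 0.00315). Its call with Arg (-0.28, adjusted p = 0.0311) was lost without Arg replicate A at 24 h, or without replicate A or C at 48 h (adjusted p = 0.0978, 0.161 and 0.0787).

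**Figure D3:**
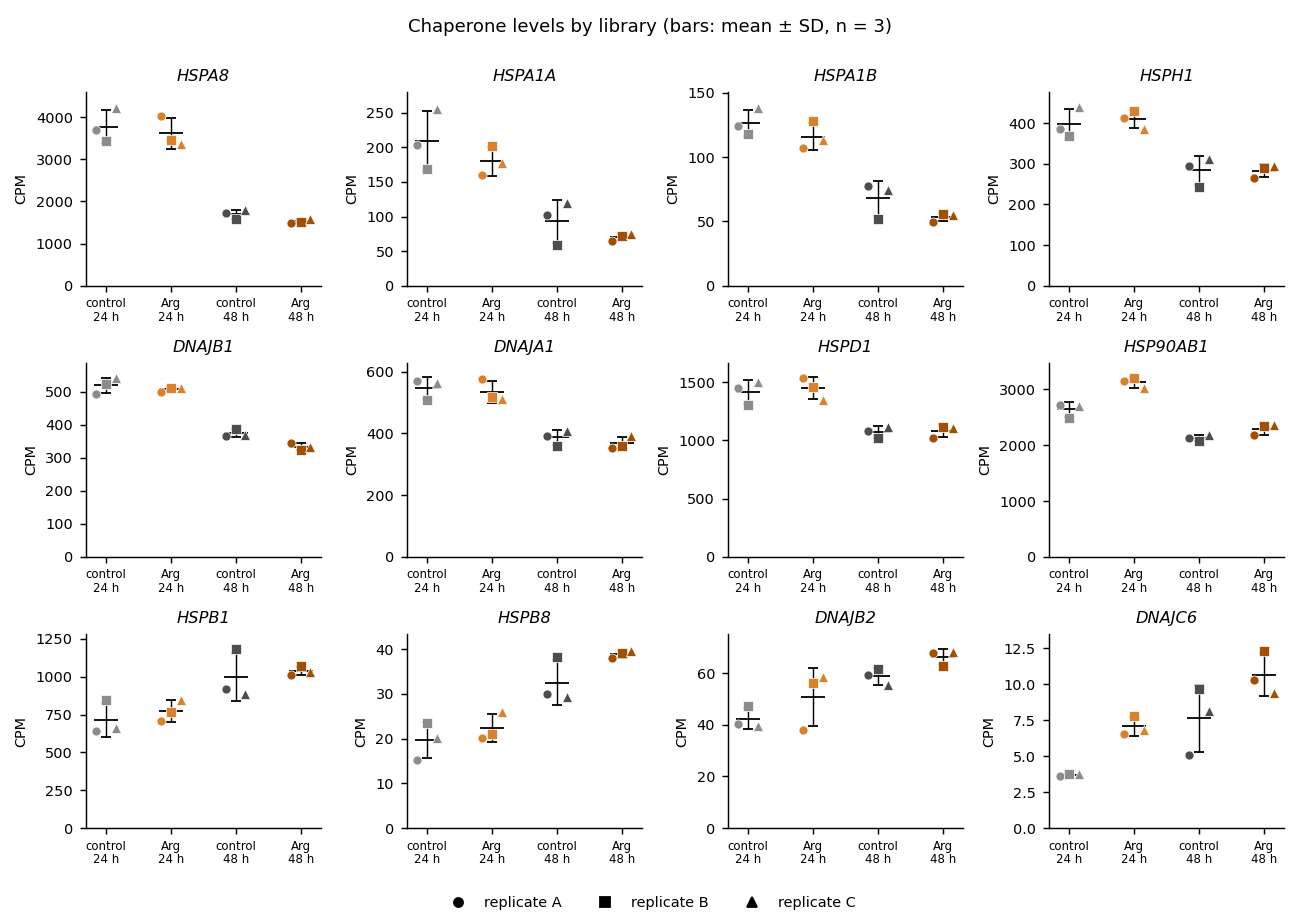
Level in CPM (y axes, from 0) of 12 members in each library of the 4 groups (x axes), with points shaped by replicate and bars for the mean ± SD. For the 8 genes from HSPA8 to HSP90AB1 each 48 h group lies below the 24 h group of its medium, and for HSPB1, HSPB8, DNAJB2 and DNAJC6 it lies above.

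The members upregulated in both media were small heat shock proteins, DNAJB2 and DNAJC proteins. HSPB1 (ENSG00000106211, chr7:76302544-76304295) was at 643, 846 and 662 CPM in control at 24 h and at 921, 1181 and 889 CPM at 48 h, with replicate B the highest at both times. With Arg it went from 707, 765 and 848 CPM to 1015, 1069 and 1030 CPM. The rise was 1.40-fold in control (0.49 ± 0.12, adjusted p = 0.0183) and 1.35-fold with Arg (0.43 ± 0.068, adjusted p = 9.33e-05). In control the call was lost without replicate A or C at 24 h (adjusted p = 0.103 and 0.096). HSPB8, a partner of BAG3 in the autophagy of misfolded protein, was at 15.3, 23.4 and 20.2 CPM and then at 30.0, 38.3 and 29.2 CPM in control. It rose 1.67-fold (0.74 ± 0.16, adjusted p = 0.00938) and, with Arg, 1.74-fold (0.80 ± 0.10, adjusted p = 1.22e-05). Without control replicate A at 24 h the control value had an adjusted p of 0.0537. BAG3 itself had log2 fold changes of -0.08 and -0.11 (adjusted p = 0.446 and 0.306).

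DNAJC6, or auxilin, recruits HSPA8 to clathrin coats. It went from 3.63, 3.73 and 3.78 CPM to 5.09, 9.68 and 8.14 CPM in control (2.07-fold higher, 1.05 ± 0.24, adjusted p = 0.0127) and rose 1.51-fold with Arg (0.60 ± 0.16, adjusted p = 0.00926). In control the call was lost without replicate A or C at 24 h (adjusted p = 0.0621 and 0.0567), and with Arg without replicate B at 48 h (adjusted p = 0.0665). GAK, the second auxilin, which has a J domain but another name, was upregulated too, by 1.33-fold in control (adjusted p = 0.0462) and 1.21-fold with Arg (adjusted p = 0.0263). DNAJC15, a J protein of the mitochondrial import motor, went from 6.99, 6.33 and 6.46 CPM to 9.82, 15 and 12.6 CPM in control (1.91-fold higher, adjusted p = 0.00636) and rose 1.39-fold with Arg (adjusted p = 0.0106). DNAJB2, which sorts ubiquitinated clients, rose 1.39-fold in control (adjusted p = 0.00693) and 1.31-fold with Arg (adjusted p = 0.0179). The Arg call of DNAJB2 was lost without Arg replicate A at 24 h, or replicate A or C at 48 h (adjusted p = 0.0509, 0.0594 and 0.058). DNAJC13, an endosomal J protein, and DNAJC18 were upregulated in both media by 0.26 and 0.55 on the log2 scale in control, each with an adjusted p of 0.0425 or above there. In control the DNAJC13 call was lost without any 1 library other than replicate B at 24 h (adjusted p from 0.0513 to 0.173), and the DNAJC18 call without any other than replicate B at 48 h (0.0643 to 0.147). With Arg the DNAJC13 call was lost without replicate C at 24 h or replicate B or C at 48 h (0.0512 to 0.0644), and the DNAJC18 call without replicate A or B at 24 h or replicate A at 48 h (0.0536 to 0.144). HSPB3, a muscle-type small heat shock protein, had 3, 1 and 3 counts in control at 24 h and 18, 35 and 16 counts at 48 h. The ratio of the summed levels was 9.20 (exact 95% interval 4.24 to 23.7, counting error only), and the adjusted p was 0.00615. With Arg HSPB3 missed the threshold (0.96 ± 0.44, adjusted p = 0.111) and its groups overlapped, so it was upregulated in control only.

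Members known as targets of heat shock factors were described as a list of 14, named from background knowledge with earlier results of these data known. In control 8 of the 14 were downregulated and 2 upregulated, with a median log2 fold change of -0.369. With Arg 10 were downregulated and 2 upregulated, with a median of -0.530. The upregulated members were HSPB1 and HSPB8 in both media. HSPA4L, an HSP110 relative on the list, had -0.05 in control and 0.17 with Arg (adjusted p = 0.667 and 0.0933). Over the other 50 tested members the median was -0.059 and 0.046, with 4 and 8 downregulated and 6 and 5 upregulated. HSPA6, a stress-inducible HSP70, was not on the list and is among those others (-1.47 in control and -1.65 with Arg, adjusted p = 0.152 and 0.000414). Because the list was drawn up with earlier results known, its contrast with the other members is a description and not a test. Of the 7 members whose promoter windows hold the 3-unit heat shock element, 5 were downregulated in control and 6 with Arg, and none was upregulated. Their medians were -0.39 and -0.53. The member with the element that was called in neither direction with Arg was DNAJB6, a J protein that blocks aggregation, and it was downregulated in control (-0.24, adjusted p = 0.046). In control the uncalled ones were HSP90AA1 and HSPA6. Among the other 50 members with a window, 7 were downregulated in control and 11 with Arg. The 2-unit element was also present in the windows of HSPB1 and HSPB8, so it did not separate the directions. The split by the 3-unit element depends on the exact word and on the window. HSPA1A, HSPA1B and DNAJB1, which are on the list of 14, held only the 2-unit element. HSPH1 and HSPE1, also on the list, held neither, and the HSPD1 match lies outside the HSPE1 window.

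HSF1 itself was downregulated in control (-0.31 ± 0.084, adjusted p = 0.0224) and had a value of -0.15 with Arg (adjusted p = 0.14). Other chaperone systems were read from lists of partners. All 8 subunits of TRiC, the cytosolic chaperonin that folds actin and tubulin, were downregulated in both media, with medians of -0.361 and -0.392. TCP1 had the largest change among them, -0.43 ± 0.083 in control (adjusted p = 0.00581) and -0.48 ± 0.061 with Arg (adjusted p = 9.09e-06). Of 16 HSP90 co-chaperones, 6 were downregulated in control and 9 with Arg, led by FKBP4 (-0.75 and -0.72, adjusted p = 0.00341 and 2.42e-07) and CHORDC1 (-0.68 and -0.60, adjusted p = 0.00315 and 1.1e-05). The 1 upregulated co-chaperone was FKBP5, which slows steroid receptor activation (0.37 and 0.36, adjusted p = 0.00781 and 0.000209). Of 14 HSP70 co-chaperones, 5 were downregulated in control and 4 with Arg, with BAG2 at -0.61 and -0.33 (adjusted p = 0.00215 and 0.00704). Prefoldin, which passes clients to TRiC, had 1 of 6 subunits downregulated in control and 2 with Arg. Over all genes, 1431 of 14449 were upregulated and 1451 downregulated in control. With Arg 2060 of 14398 were upregulated and 2012 downregulated. No partner list was tested against these counts, so the smaller list counts are descriptions only.

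Of the 12 ER members 1 was downregulated in each medium, DNAJC10, and none was upregulated, with medians of -0.002 in control and 0.091 with Arg. At an unadjusted p under 0.05 none was higher in control and 1 with Arg, where 2470 of 14449 and 2776 of 14398 genes were. Among 15 other genes of the unfolded protein response none was called in control, where 2 were higher and 3 lower at an unadjusted p under 0.05. Of all 14449 genes tested in control, 2470 were higher and 2456 lower at that threshold. With Arg 4 were upregulated, CALR (0.19), EDEM1 (0.44), SEL1L (0.32) and SYVN1 (0.30), which serve folding or degradation in the ER. Of the 10 mitochondrial members, DNAJC15 was upregulated in both media. Downregulated were 1 in control (HSPD1) and 3 with Arg (HSPD1, HSPE1 and DNAJA3), with medians of -0.169 and -0.048. The counts of all genes called in each direction are given above with the partner lists. Whether the ER, unfolded protein response or mitochondrial counts differ from them was not tested.

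The comparison of Arg with control at 24 h asks how Arg changed chaperone RNA after 1 day. HSPA6 was 7.17-fold lower with Arg, and HSPA2 and HSPA4L were 1.30-fold lower. DNAJC6, DNAJC15 and HSPB3 were upregulated. In all 3 members were upregulated and 3 downregulated, where 2.79% and 3.84% of 14279 genes were called. At an unadjusted p under 0.05 the counts were 7 and 8, where 10.8% and 11.9% of all genes passed. These shares of the 64 tested members were near those of all genes. The share of counts from mitochondrial-chromosome genes also differed between these groups, at 1.20% to 1.30% in control and 0.624% to 0.802% with Arg, and its part in the results was not tested.

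HSPA6 was at 20.1, 10.1 and 51.9 CPM in control at 24 h and at 3.88, 4.37 and 3.17 CPM with Arg. All Arg libraries lay below all control libraries, and the control libraries were far more scattered than the Arg libraries. The log2 fold change was -2.84 ± 0.41 (adjusted p = 0.000417), and the call held in each of the 6 fits with a library left out. In those fits the log2 fold change ranged from -3.24 without control replicate B to -1.99 without control replicate C. Its 2 cytosolic relatives HSPA1A and HSPA1B had values of -0.22 ± 0.12 and -0.13 ± 0.090, with overlapping groups (adjusted p = 0.291 and 0.438). Without control replicate B, HSPA1A passed (-0.35, adjusted p = 0.0325).

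HSPA2, an HSP70 first known from the testis and also expressed in epithelia, was at 156, 172 and 149 CPM in control and at 114, 129.7 and 123 CPM with Arg, without overlap (-0.37 ± 0.084, adjusted p = 0.0125). The call was lost without Arg replicate C (adjusted p = 0.06). HSPA4L, an HSP110 relative, was at 88.8, 89.9 and 86.2 CPM and at 71.8, 66.0 and 66.0 CPM (-0.38 ± 0.084, adjusted p = 0.0111). Without control replicate A, Arg replicate B or Arg replicate C its adjusted p was 0.0579, 0.0622 and 0.0748. Both genes thus showed a small change without overlap, and neither call held in every fit with a library left out.

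DNAJC6 was at 3.63, 3.73 and 3.78 CPM in control and at 6.57, 7.81 and 6.82 CPM with Arg (1.90-fold, 0.93 ± 0.20, adjusted p = 0.00845). Without Arg replicate B its adjusted p was 0.058. GAK was upregulated as well (0.41 ± 0.11, adjusted p = 0.0337), so both auxilins were higher with Arg at 24 h. DNAJC15 was at 6.99, 6.33 and 6.46 CPM and at 10.3, 9.79 and 9.94 CPM (1.52-fold, 0.60 ± 0.16, adjusted p = 0.0322). It kept its call in 1 of 6 fits with a library left out, the one without control replicate B, and the others gave an adjusted p from 0.0584 to 0.108. HSPB3 had 3, 1 and 3 counts in control and 14, 11 and 28 with Arg, a ratio of summed levels of 7.54 (exact 95% interval 3.41 to 19.6). Its adjusted p of 0.0135 rose to 0.0667, 0.0501 and 0.115 without control replicate A, control replicate C or Arg replicate C, and DESeq2 gave no adjusted p. Of the partner lists not yet mentioned, prefoldin had 1 subunit downregulated with Arg at 24 h, PFDN4 (-0.52, adjusted p = 0.0145), and the TRiC, HSP70 and HSP90 co-chaperone and heat shock factor lists had none called by edgeR in either direction.

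**Figure D4:**
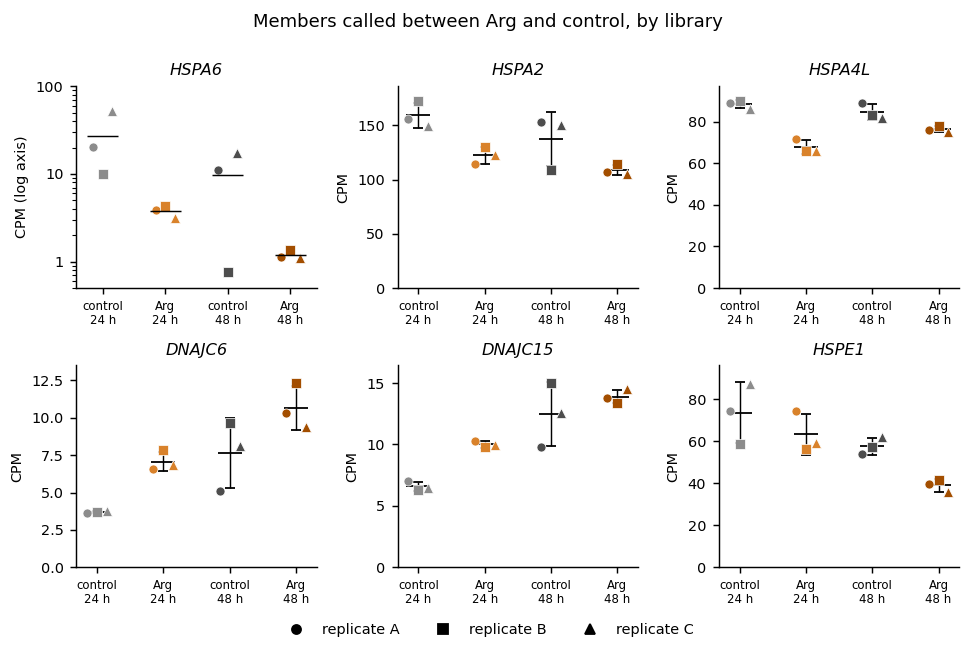
Level in CPM of 6 members in each library of the 4 groups, with points shaped by replicate. HSPA6 has a log axis and a line for the mean, the others start at 0 with bars for the mean ± SD. At 24 h the Arg libraries of HSPA6, HSPA2 and HSPA4L lie below all control libraries and those of DNAJC6 and DNAJC15 above. At 48 h control replicate B of HSPA6 (0.773 CPM) lies below the Arg libraries.

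HSPA5 and HSP90AB1 fell just beyond the threshold at 24 h, each with an adjusted p of 0.0508. HSPA5 was at 894, 759.7 and 983 CPM in control and at 719.6, 725 and 706 CPM with Arg (-0.29 ± 0.087). HSP90AB1 was at 2726, 2492 and 2707 CPM and at 3156, 3203 and 3020 CPM (0.24 ± 0.072). The groups did not overlap for either gene. HSPA5 passed under DESeq2 (adjusted p = 0.0251) and HSP90AB1 did too (adjusted p = 0.0141). Among 15 other genes of the unfolded protein response, none was upregulated and EDEM1 and HERPUD1 were downregulated. EDEM1, which marks glycoproteins for degradation, had -0.49 ± 0.12 (adjusted p = 0.0254) and HERPUD1, a scaffold of the same pathway, had -0.32 ± 0.090 (adjusted p = 0.0411). The 12 ER chaperones of the rule had a median of -0.064 with none called, and 2 of them were lower at an unadjusted p under 0.05, HSPA5 and DNAJC10 (-0.28, unadjusted p = 0.00633). HSP90B1 and DNAJC3, an inhibitor of the translation kinase PERK, had values of -0.01 and -0.19 (adjusted p = 0.973 and 0.238). DNAJB9, which holds the stress sensor IRE1 inactive, had -0.18 ± 0.19 (adjusted p = 0.631), with its control libraries between 9.81 and 17.7 CPM.

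At 48 h HSPE1 was the 1 member called between Arg and control. It was at 53.7, 57.2 and 61.8 CPM in control and at 39.6, 41.6 and 35.8 CPM with Arg, without overlap (1.48-fold lower, -0.56 ± 0.088, adjusted p = 0.0315). No member was upregulated by edgeR or by DESeq2. Over all genes, edgeR called 0% upregulated and 0.117% of 14562 downregulated, and DESeq2 called 40 genes upregulated and 144 downregulated. At an unadjusted p under 0.05, 4 members were higher and 11 lower, where 5.94% and 7.49% of all genes passed. The HSPE1 call was lost in 5 of 6 fits with a library left out (adjusted p from 0.104 to 0.262) and with all 12 libraries in 1 model (0.0703). It was kept without control replicate B (adjusted p = 8.62e-05). HSPD1, its partner in the same chamber, had 0.01 ± 0.058 (adjusted p = 0.944). None of the partner lists had a gene called at 48 h by edgeR.

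Many values at 48 h turned on control replicate B. For HSPA6 it was at 0.773 CPM, below all Arg libraries (1.14, 1.37 and 1.09 CPM), while control replicates A and C were at 11.2 and 17.5 CPM. For HSPA1A it was at 58.5 CPM, against 102 and 119 CPM in the other controls and 65.2, 71.8 and 75.1 CPM with Arg. For HSPA2 it was at 109 CPM, against 153 and 150 CPM and 107, 114 and 105 CPM. In all 3 genes that library thus lay within or below the range of the Arg libraries. HSP90AA1 had the same order, with 1804 CPM in that library, 2438 and 2537 CPM in the other controls and 1764, 1968 and 2008 CPM with Arg. Other members did not show this order. For HSPE1 that library was at 57.2 CPM, against 53.7 and 61.8 CPM in the other controls and 39.6, 41.6 and 35.8 CPM with Arg. For HSPA4L it was at 83.2 CPM, against 88.8 and 81.9 CPM and 75.9, 78 and 75.1 CPM. The mitochondrial-chromosome share of that library was 1.55%, against 0.906% and 0.707% in the other controls and 1.14% to 1.31% with Arg. What set the library apart was not tested. Its label was taken as given, and all values of Arg against control at 48 h depend on that label.

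With that library the log2 fold change of HSPA6 at 48 h was -3.03 ± 0.74 (adjusted p = 0.148), and without it -3.57 ± 0.24 (adjusted p = 3.42e-10). Without it 6 members were upregulated and 9 downregulated, against 7.76% and 8.17% of all genes. The downregulated were HSPA6, HSPA1A (-0.64, adjusted p = 2.74e-06), HSPA2 (-0.48, adjusted p = 1.06e-05), HSP90AA1 (-0.38, adjusted p = 3.21e-05), HSPA1B (-0.50, adjusted p = 4.58e-05), HSPE1, HSPA8 (-0.20, adjusted p = 0.00806), DNAJC1 and HSPA5. The upregulated were HSPB8 (0.40, adjusted p = 0.00319), HSPB1 (0.20, adjusted p = 0.00803), DNAJC6 (0.69, adjusted p = 0.0159), DNAJC11, DNAJB12 and DNAJC4. In these values the called cytosolic HSP70 genes and the ER gene HSPA5 lay below 0, and HSPB1 and HSPB8 above. Of the 48 h controls, the removed library had the lowest HSPA1A (58.5 CPM) and the highest HSPB1 (1181 CPM). Leaving it out therefore moved these genes apart, and this does not repeat the time result. With all libraries HSPB1 had 0.06 (adjusted p = 0.826). The values without that library rest on 2 control libraries, and it was chosen for removal after its values were seen.

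**Figure D5:**
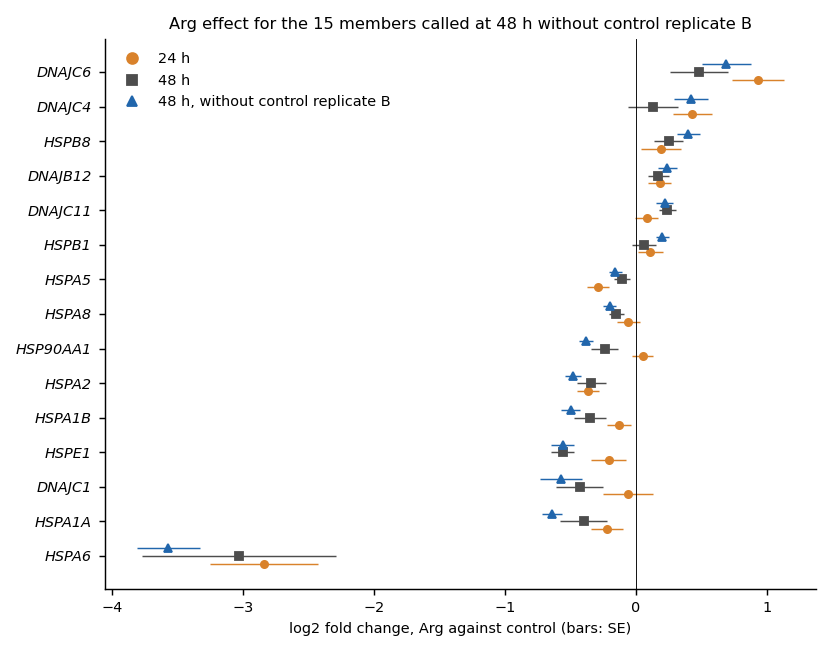
Log2 fold change of Arg against control (x axis) with SE bars for the 15 members called at 48 h without control replicate B, at 24 h (circles), at 48 h with all libraries (squares) and at 48 h without that library (triangles). HSPA6 lies at -2.84, -3.03 and -3.57 in these 3 cases, and HSPA1A moves from -0.40 to -0.64 when the library is left out.

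The 24 h and 48 h comparisons of Arg with control share no library, and their values can be set side by side. HSPA6 had -2.84 and -3.03, HSPA2 -0.37 and -0.34, HSPA4L -0.38 and -0.15, and DNAJA4 -0.37 and -0.48, each with an unadjusted p under 0.05 at both times. DNAJC6 was the 1 member higher on that criterion at both times, with 0.93 and 0.48. The interaction of Arg and time called none of the 64 members by edgeR or DESeq2. Over all genes, edgeR called 0.0132% of 15148, and DESeq2 called 10 higher and 13 lower. At an unadjusted p under 0.05, 3 members passed by edgeR, where 6.87% of all genes did. The 3 were HSPB3 (-2.18 ± 0.80, adjusted p = 0.606), HSPA4L (0.23 ± 0.10, adjusted p = 0.708) and HSP90AA1 (-0.29 ± 0.14, adjusted p = 0.708). HSP90AA1 was thus at 2751 and 2846 CPM on average in control and Arg at 24 h, and at 2259 and 1913 CPM at 48 h. A difference between the times in the Arg effect on a member was not detected at this depth and number of libraries.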

How the data were processed

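Poly(A) RNA of 12 libraries was sequenced as 150 bp read pairs. Per the submitters' processing notes the reads passed through fastp, STAR and featureCounts on GRCh38 (hg38). The versions, annotation release and strand setting are not given in the sources used here. The authors deposited whole-number read counts per gene, and their methods name DESeq2 with Benjamini-Hochberg adjustment. The methods take a gene as changed at a p value under 0.05, and do not say that this p is the adjusted one. The other deposited columns used here were gene names, classes, positions and exonic lengths.

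Counts were tested with edgeR 4.0.16 in R 4.3.3 (filterByExpr, TMM scaling, quasi-likelihood test, two-sided) on the 6 libraries of each comparison, or all 12 for the interaction. The p values were adjusted by Benjamini and Hochberg over all genes tested, with a threshold of 0.05. Library totals ran from 16542243 to 19040964 counts. Intervals and floors (3 counts) cover counting error only. CPM and RPKM were computed here from the deposited counts, CPM with TMM factors. The tests were repeated with DESeq2 1.42.0, with its size factors put into edgeR, scaled by library size alone, unfiltered, with a minimum of 10 counts per library, in a model of all 12 libraries, blocked on the replicate letter, and after leaving out single libraries.

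The members and gene lists were chosen with earlier results of these data known. Named members were reference chaperones, members called with Arg, the smallest p values per comparison and direction, the smallest interaction p values and the highest levels per length. HSPA1L, DNAJB6, DNAJA3, DNAJC1 and the untested members were named outside that rule, after their values were seen. Promoters came from RefSeq (GRCh38.p14). Scripts were tested on simulated data.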

Additional observations from a re-analysis of the deposited data

How the results depend on the processing

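All 45 called values of named members kept their direction under every alternative. With a library left out, 222 of their values stayed past the threshold and 48 did not. Leaving out 1 library gave 1 to 3 upregulated and 1 to 5 downregulated members for Arg at 24 h, and 0 to 6 and 0 to 9 at 48 h, where the highest counts came without control replicate B. Over time in control it gave 3 to 7 upregulated and 9 to 13 downregulated members. For Arg at 48 h, 6 members were downregulated when low counts were not filtered, 0 in a model of all 12 libraries and 2 with the replicate block. Over time with Arg, library size as the only scaling gave 13 upregulated members. The cause of these changes was not tested.

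The replicate letters did not pair the samples, with correlations of deviations between -0.0615 and 0.135. With the letter as a block, upregulated and downregulated members numbered 4 and 4 for Arg at 24 h, 0 and 2 at 48 h, 9 and 16 over time in control, 7 and 17 over time with Arg, and 0 and 0 for the interaction. HSPA6 then passed over time in control (-1.62, adjusted p = 0.000497) and for Arg at 48 h (-2.62, adjusted p = 0.0155).

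Of 82 values that missed the threshold, 21 changed sign under some alternative. With library size only these were HSP90B1 for Arg at 24 h (0.0014), and HSPA4L (0.01) and HSPA9 (0.03) over time in control. With 1 library left out, the log2 fold change for Arg at 24 h ranged from -0.34 to 0.13 for DNAJB9, -0.18 to 0.05 for DNAJC18, -0.02 to 0.10 for HSP90AA1, -0.09 to 0.08 for HSP90B1, -0.15 to 0.02 for HSPA8, -0.03 to 0.08 for HSPD1 and -0.01 to 0.12 for HSPH1. For Arg at 48 h it ranged from -0.11 to 0.01 for DNAJC10, -0.20 to 0.04 for DNAJC18, -0.05 to 0.01 for DNAJC3, -0.01 to 0.42 for DNAJC4, -0.02 to 0.20 for HSPB1, -0.02 to 0.05 for HSPD1 and -0.10 to 0.06 for HSPH1. Over time in control it ranged from -0.27 to 0.19 for DNAJB9, -0.04 to 0.08 for DNAJC3, -0.07 to 0.09 for HSP90B1, -0.17 to 0.01 for HSPA5 and -0.09 to 0.0031 for HSPA9, and over time with Arg from -0.04 to 0.10 for DNAJC11. Depth limited HSPB3, which had no adjusted p from DESeq2, and the 12 untested members.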
